A study of Homo sapiens with 5 samples.

Results

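The histone genes of the replication clusters were taken as the genes whose earlier official names began with HIST1H, HIST2H, HIST3H or HIST4H, read through the platform annotation and the gene identifiers of RefSeq. By that rule 71 of 54613 probe sets belonged to the group, of which 51 were listed for 1 histone gene and 20 were shared by several near-identical histone genes. The 51 probe sets named 45 genes, of 19775 genes with a probe set of their own, and its brightest probe set over the 5 arrays stood for each. RefSeq lists 71 protein-coding genes under these names, of which 43 had their own probe set, 19 were measured on shared probe sets alone and 9 were on no probe set used here. The remaining 2 of the 45 genes, H2AC5P and H4C10P, are pseudogenes. Of the 45 genes, 42 lie on chromosome 6 and 3 on chromosome 1.

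The platform was the Affymetrix HG-U133 Plus 2 array (5 arrays in all), on which probe sets sit near the 3′ end of each transcript. The cells were of the established line MHH-ES-1, from a human Ewing sarcoma, in which an EWSR1-FLI1 fusion drives growth. They were transfected for 48 h with a microRNA mimic, a synthetic RNA duplex that acts as the named microRNA, at 50 nM. The groups were miR-483-5p (2 arrays), a scrambled mimic as control (2 arrays) and miR-483-3p (1 array), so that all groups share the line, the lipid reagent and the dose. In each pair 1 array is labelled a repeat, with no word on whether the cultures were separate. So p-values here reflect array to array spread, possibly technical, and the single miR-483-3p array is assumed to vary like the others.

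Each of the H2A, H2B, H3 and H4 families supplies a protein of the nucleosome core, around which DNA is wrapped, and H1 is the linker histone that binds DNA between cores. The clustered genes have no introns and are transcribed mainly in S phase, when new DNA is packaged. Their mRNA usually ends in a stem-loop bound by SLBP rather than in a poly(A) tail, but some members, among them H1-2, H2AC6, H2BC5, H2BC12 and H2BC21, are known also for polyadenylated transcripts. Labelling for 3′ arrays normally starts from the poly(A) tail. The labels name the labelling kit and not the primer, so how far a signal stands for the stem-loop form was not tested.

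Histone promoters are compact, and the windows of 5 members are shown because these genes were lower with both mimics at an unadjusted p under 0.05. The share of all genes lower with both was not counted, and both mimics were compared with the same controls, so the 5 are only a choice for display. The sequences are the 250 bases before the annotated start, read 5′ to 3′ on the gene's strand from RefSeq, assembly GRCh38.p14. Capitals mark matches, on either strand, to the CCAAT box (CCAAT), the TATA box (TATAAA), the octamer (ATTTGCAT) and the H1 box (AAACACA). Matches to the TATA box on opposite strands can overlap, as they do far upstream of H2BC12.

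H2AC6, chr6:26123922-26124171, + strand: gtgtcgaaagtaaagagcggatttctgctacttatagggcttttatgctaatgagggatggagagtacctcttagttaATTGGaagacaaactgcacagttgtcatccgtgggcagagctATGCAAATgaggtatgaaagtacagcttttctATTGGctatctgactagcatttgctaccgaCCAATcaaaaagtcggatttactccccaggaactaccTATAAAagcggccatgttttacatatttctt

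H2BC5, chr6:26157871-26158120, + strand: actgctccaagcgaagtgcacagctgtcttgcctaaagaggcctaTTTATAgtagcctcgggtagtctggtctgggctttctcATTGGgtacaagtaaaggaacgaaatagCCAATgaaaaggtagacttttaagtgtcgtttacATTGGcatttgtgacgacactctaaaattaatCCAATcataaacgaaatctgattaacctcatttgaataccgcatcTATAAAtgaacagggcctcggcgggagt

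H2BC9, chr6:26251364-26251613, + strand: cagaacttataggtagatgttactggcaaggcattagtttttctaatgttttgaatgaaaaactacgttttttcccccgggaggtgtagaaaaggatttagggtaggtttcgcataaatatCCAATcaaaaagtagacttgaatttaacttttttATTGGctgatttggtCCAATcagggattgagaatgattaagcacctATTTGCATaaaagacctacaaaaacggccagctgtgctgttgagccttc

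H2BC12, chr6:27146859-27147108, - strand: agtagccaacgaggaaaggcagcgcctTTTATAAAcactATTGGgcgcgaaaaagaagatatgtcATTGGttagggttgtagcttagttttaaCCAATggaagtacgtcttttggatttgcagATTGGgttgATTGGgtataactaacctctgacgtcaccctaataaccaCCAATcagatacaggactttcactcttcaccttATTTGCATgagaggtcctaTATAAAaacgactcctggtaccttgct

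H4C8, chr6:26285535-26285784, - strand: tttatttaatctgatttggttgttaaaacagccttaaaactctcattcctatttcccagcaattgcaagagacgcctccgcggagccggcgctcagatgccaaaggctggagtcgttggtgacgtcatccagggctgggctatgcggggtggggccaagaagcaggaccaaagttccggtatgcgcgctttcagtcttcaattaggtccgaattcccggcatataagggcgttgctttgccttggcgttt

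The octamer, a binding sequence of the POU factor OCT1, is in 3 of these windows, those of H2AC6, H2BC9 and H2BC12. The window of H4C8 holds none of the 4 motifs as spelled. Among 70 windows of 66 histone cluster genes, 38.6% hold the octamer, against 1.63% of 35116 windows of the same length over all genes. The octamer is in 75.0% of the H2B windows and 68.8% of the H2A windows, in 6.67% of the H3 windows and in none of those of H1 and H4. The only H3 window with it belongs to a start of H3C4 that is also the start of H2AC7, so this window counts in both families. The CCAAT box is in 85.7% of the histone windows and 32% of all windows, and the TATA box in 67.1% and 10.7%. The H1 box is in 6 of 6 H1 windows and in no window of another histone family, against 4.82% of all windows. The octamer was in 50.0% of the 10 windows of members that were lower with miR-483-5p and in 41.7% of the 12 windows of the other members measured, and the CCAAT box in 90.0% and 83.3%. A match is a description of the sequence and says nothing of binding in these cells.

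Much of the group was dim. On its brightest probe set, 25 of the 45 genes had a mean control signal under 27, in the scanner's linear units after scaling by the authors. They are H1-1, H1-3, H1-4, H1-5, H2AC4, H2AC5P, H2AC8, H2AC16, H2AC17, H2BC1, H2BC3, H2BC13, H2BC15, H2BC17, H3-4, H3C1, H3C2, H3C3, H3C8, H3C11, H4C1, H4C9, H4C10P, H4C11 and H4C13. Their control means ran from 2.35 to 23.6. Array by array, their signals ran from 2.4 to 31.0 (median 14.4) and 2.3 to 26.8 (median 7.2) in the controls. They ran from 1.2 to 37.8 (median 12.2) and 2.4 to 40.2 (median 11.9) under miR-483-5p, and from 3.5 to 43.5 (median 9.0) under miR-483-3p. Over the 71 probe sets, 45.07% had a control mean under 27, against 38.2% of all probe sets. Without detection calls it is not known which of the dim probe sets lay above background, and a dim probe set does not show that its gene was silent. Signals of different probe sets are not compared as levels, since each probe set has its own response. A filter at the 40th percentile of the mean over all arrays, a signal of 27.2, kept 20 of the 45 genes among 14591 genes tested. They are 18 of the 20 with a control signal of 27 or more, all but H2BC14 and H4C7, and the dim H2AC4 and H2AC5P. All counts below are over those 20, which are not all members.

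**Figure D1:**
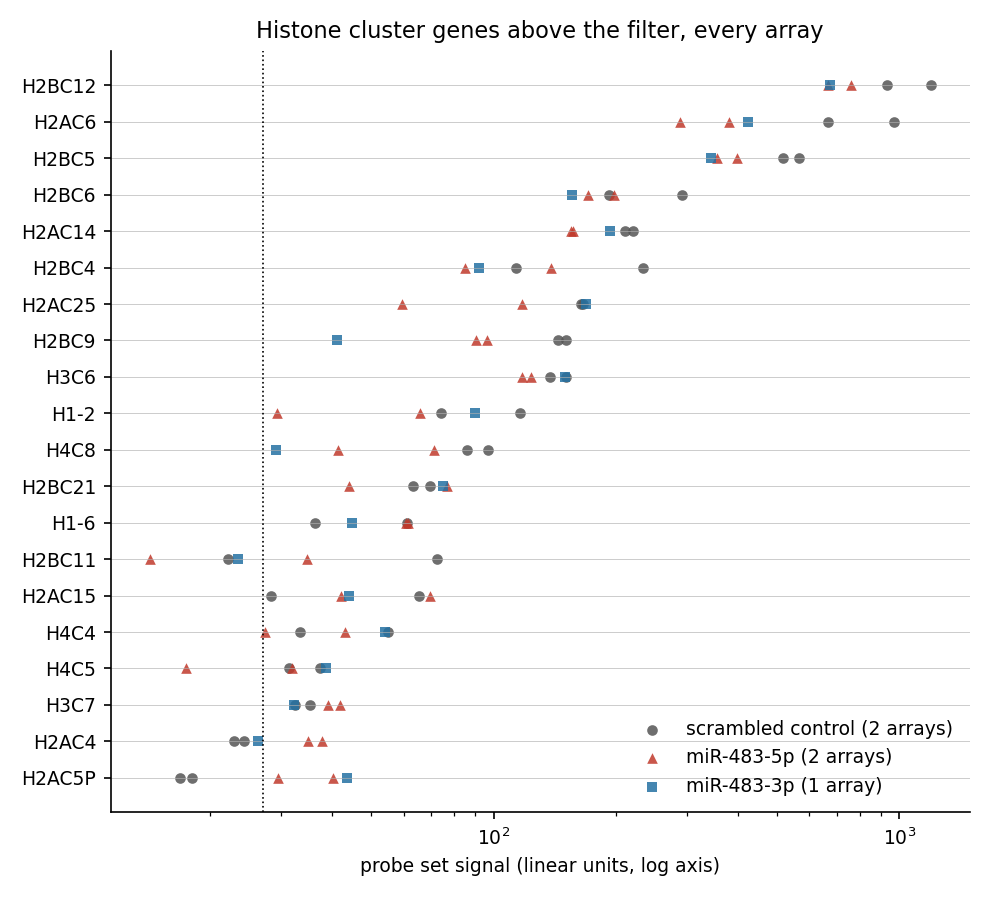
Probe set signal (linear units on a log axis) of the 20 histone cluster genes above the filter, with 1 point per array: circles for the scrambled control, triangles for miR-483-5p and squares for miR-483-3p. The dotted line stands at a signal of 27, the mark under which a control mean is called dim. In 6 genes (H2BC12, H2AC6, H2BC5, H2AC14, H2BC9 and H4C8) all 3 mimic arrays lie to the left of both controls. Over all genes tested, both miR-483-5p arrays lay below both controls in 22.2% and the miR-483-3p array in 35.4%. The share with all 3 below was not counted over all genes, and both mimics share the same controls.

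Many of the measured histone genes had lower signals under miR-483-5p than under the scrambled mimic, but none passed the test across all genes. Values were compared as log2(signal + 32), a scale that understates differences of dim probe sets, with limma and Benjamini-Hochberg adjustment. No gene at all passed an adjusted p of 0.05 (0.0% of 14591), and the lowest adjusted p over all genes was 0.226. Among the 20 members, 15 were below 0, with a median of -0.36, where the median of all genes was -0.008 and 51.5% of all genes were below 0. Of these 15, H2BC11 and H4C5 had miR-483-5p means of 24.4 and 24.7, under the filter's signal, and control means of 47.35 and 34.35. They passed at least in part through the group where they are high, so their signs support nothing. The same holds for H2AC4 and H2AC5P among those above 0. The median was -0.11 over all 45 genes, fitted without the filter, and -0.17 over the 20 without the first control array. At an unadjusted p under 0.05, 8 of 20 members were lower (H1-2, H2AC6, H2AC14, H2AC25, H2BC5, H2BC9, H2BC12 and H4C8), against 5.41% of all genes tested, and 1 (H2AC5P) was higher, against 5.3%. H2AC5P passed the filter only through the mimic arrays, where it is high, so this count supports nothing. In 9 of 20 members both miR-483-5p arrays lay below both controls, against 22.2% of all genes. The count of 8 depends on single arrays. Leaving out the first or the second miR-483-5p array gave 5 and 4, and leaving out the first or the second control gave 3 and 9. The 3 were H2AC6, H2AC25 and H2BC9. In bulk RNA, fewer cells in S phase and less histone RNA per cell cannot be told apart.

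For miR-483-3p there is 1 array, and standard errors are larger. At an unadjusted p under 0.05, 5 of 20 members were lower (H2AC6, H2BC5, H2BC9, H2BC12 and H4C8), against 4.05% of all genes tested, and H2AC5P alone was higher, against 2.51%, with the same limit. No gene passed the adjusted threshold in limma (0.0%), and the lowest adjusted p was 0.278. The median of the 20 members was -0.05, with 13 of 20 below 0, against 50.2% of all genes, and the members were spread over both signs. H2BC11, at 23.5 with miR-483-3p, is among the 13 and H2AC5P among those above 0, both with the limit of the filter given above. The single array lay below both controls in 9 of 20 members, against 35.4% of all genes. Leaving out the first or the second control changed the count of 5 to 3 and 8. Both mimics were compared with the same 2 control arrays, so a high control array lowers both differences, and their values are only given side by side.

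**Figure D2:**
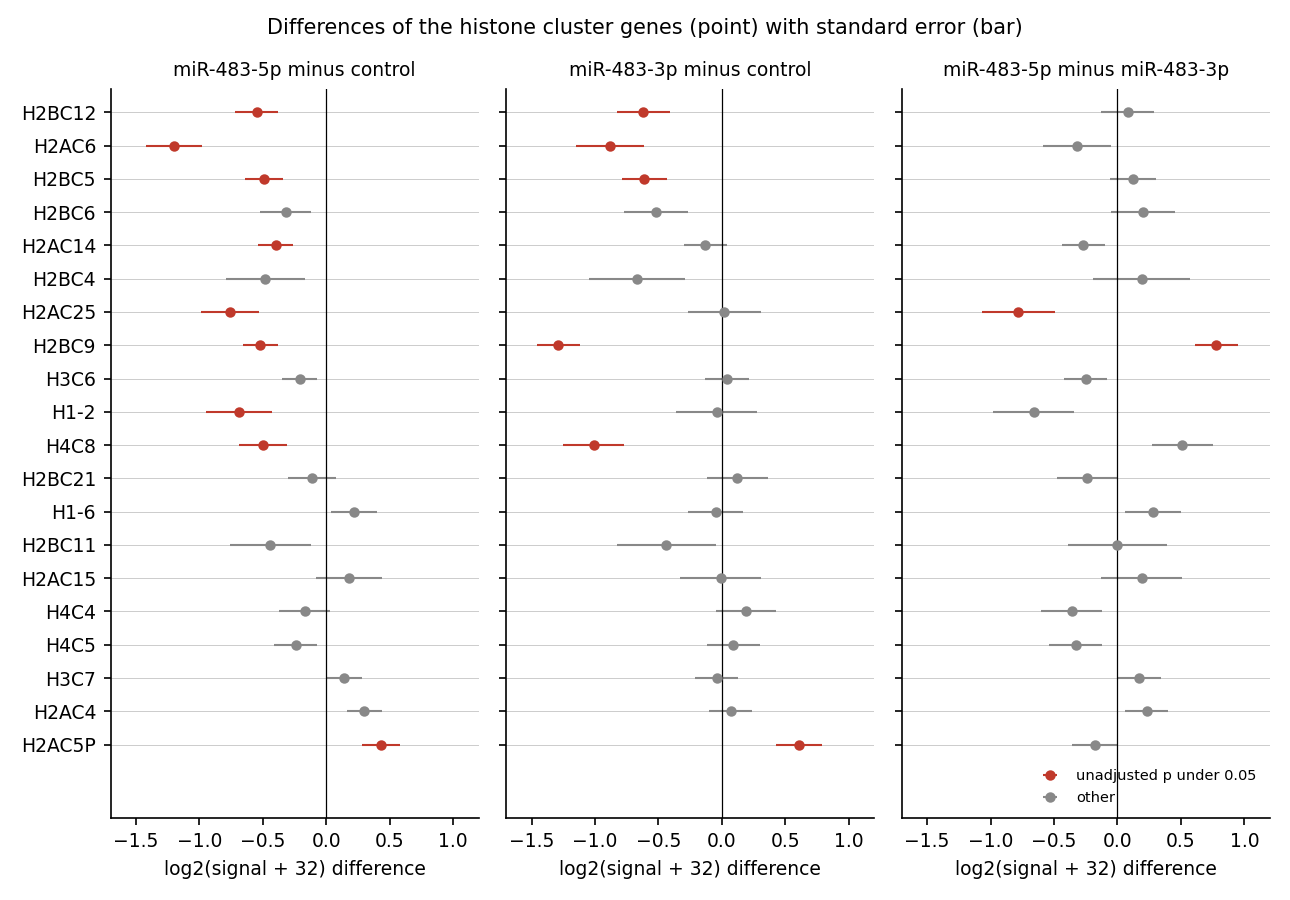
Difference in log2(signal + 32) (point) with its standard error (bar) for the 20 histone cluster genes above the filter, in order of control signal, for miR-483-5p minus control, miR-483-3p minus control and miR-483-5p minus miR-483-3p. Red marks an unadjusted p under 0.05: 8 genes lower and 1 higher in the first panel, 5 lower and 1 higher in the second, and H2AC25 and H2BC9 in the third.

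H2A and H2B pair as dimers on the outside of the core and make up 13 of the 20 members above the filter. All 7 H2B genes above the filter were below 0 with miR-483-5p, at a median of -0.48, and 6 of 7 with miR-483-3p, at a median of -0.61. H2BC11 is counted in both and passed the filter through the controls, at a mean of 47.35 there. It stood at 24.4 with miR-483-5p and 23.5 with miR-483-3p, so its sign supports nothing. The signs of the H2B medians held with median centring, with quantile normalization and without each paired array. Their size did not, and without the first control array the H2B medians were -0.16 and -0.25. The 6 H2A genes above the filter were split, with 3 below 0 with miR-483-5p and a median of -0.11.

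H2AC6, an H2A gene formerly named HIST1H2AC, had the largest difference with miR-483-5p of the 20 members above the filter. Its signals were 972.5 and 666.5 in the controls, 380.2 and 288.7 under miR-483-5p and 422.5 under miR-483-3p. Every mimic array was below both controls, and the controls were far apart from each other. The log2 difference was -1.20 (SE 0.22) with miR-483-5p and -0.88 (SE 0.27) with miR-483-3p, with limma adjusted p = 0.300 and 0.644. Across the alternative settings the miR-483-5p difference ran from -1.47 to -0.94 and its adjusted p from 0.0167 to 0.52. It passed in 3 settings, median centring (0.0356), a pseudocount of 100 (0.0211) and a variance prior that follows intensity (0.0167).

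H2BC12, an H2B gene formerly named HIST1H2BK, had signals of 1194.6 and 929.9 in the controls, 759.5 and 667.4 under miR-483-5p and 673.1 under miR-483-3p. The mimic arrays lay close together and below both controls. The differences were -0.55 (SE 0.17) and -0.62 (SE 0.21), with limma adjusted p = 0.387 and 0.676. H2BC5, another H2B gene, had 566.6 and 516.0 in the controls, 398.3 and 355.3 under miR-483-5p and 344.0 under miR-483-3p. Again the groups did not overlap, at differences of -0.49 (SE 0.15) and -0.61 (SE 0.18). Its second probe set gave -0.53 and -0.72, although there the controls were as far apart as 455.3 and 267.2. Both probe sets have the suffix _x_at, which marks probes that the maker lists as open to cross-hybridization, so the second is no independent check. The same holds for the own probe sets of H2BC9, H2AC14, H2BC6 and H2BC12L.

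H2BC9, formerly HIST1H2BH, had a lower signal under the 3p arm than under the 5p arm. Its signals were 143.8 and 150.9 in the controls, 96.4 and 90.5 under miR-483-5p and 41.1 under miR-483-3p, so both pairs were tight and the miR-483-3p array was the lowest of the 5. The differences from control were -0.52 (SE 0.14) and -1.29 (SE 0.17), with limma adjusted p = 0.339 and 0.391. The difference between the arms was 0.78 (SE 0.17), with adjusted p = 0.578. Its only own probe set is of the _x_at type, to which related H2B genes can add signal.

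H2AC25, an H2A gene of the small cluster on chromosome 1, was in the opposite order between the arms. Its signals were 164.0 and 166.5 in the controls, 59.3 and 117.4 under miR-483-5p and 168.5 under miR-483-3p. Only the miR-483-5p arrays were low, and they were far from each other. The difference was -0.76 (SE 0.23) with miR-483-5p, 0.02 (SE 0.29) with miR-483-3p and -0.78 (SE 0.29) between the arms, with limma adjusted p = 0.381, 0.995 and 0.693. A second, dimmer probe set, of the _x_at type, gave -0.59 (SE 0.23) and -0.27 (SE 0.29) against the control. There the miR-483-3p array, at 42.1, lay between the controls, at 77.8 and 40.8. Between the arms, H2AC25 was the 1 member lower with miR-483-5p at an unadjusted p under 0.05 (3.24% of all genes) and H2BC9 the 1 member higher (3.41%). No gene passed the adjusted threshold there (0.0%), and the lowest adjusted p was 0.564.

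H2AC14 had tight pairs, 220.7 and 210.7 in the controls against 155.4 and 156.5 under miR-483-5p, with 193.9 for miR-483-3p between them. Its differences were -0.40 (SE 0.14) and -0.13. H2BC6 had 290.9 and 192.2 in the controls, 197.5 and 171.0 under miR-483-5p and 156.1 under miR-483-3p, and the miR-483-5p arrays overlapped the controls. H2BC4 overlapped too, at 233.9 and 113.7 in the controls, 138.4 and 84.9 under miR-483-5p and 92.1 under miR-483-3p. In both of these H2B genes the first control array was much brighter than the second, and the differences were -0.32 and -0.52 for H2BC6 and -0.48 and -0.67 for H2BC4. Without the first control they were -0.055 and -0.253 for H2BC6 and -0.046 and -0.231 for H2BC4. H2BC11 showed the same unevenness, at 72.5 and 22.2 in the controls, 34.6 and 14.2 under miR-483-5p and 23.5 under miR-483-3p. Its difference was -0.44 in both comparisons, and 0.03 in both without the first control array.

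H2BC21, an H2B gene on chromosome 1 that is known for a polyadenylated transcript, did not separate the groups. Its signals were 63.4 and 69.6 in the controls, 44.1 and 76.6 under miR-483-5p and 75.0 under miR-483-3p. H2AC15 had 28.3 and 65.3 in the controls, 42.0 and 69.8 under miR-483-5p and 44.0 under miR-483-3p, a spread within each pair larger than the difference between groups. H2AC4 had 24.3 and 22.9 in the controls, 37.8 and 34.9 under miR-483-5p and 26.3 under miR-483-3p, and passed the filter only through the miR-483-5p arrays. The pseudogene H2AC5P had 18.1 and 16.9 in the controls, 29.4 and 40.2 under miR-483-5p and 43.5 under miR-483-3p. All 3 mimic arrays were above both controls there, at differences of 0.43 (SE 0.15) and 0.61 (SE 0.18), with limma adjusted p = 0.409 and 0.644. Its controls were under the filter's signal of 27.2 and its mimic arrays above it, so it was tested only because of the groups where it is high. H2BC14 was under the filter, at 38.6 and 31.4 in the controls, 30.5 and 27.1 under miR-483-5p and 10.6 under miR-483-3p.

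Of the 6 linker histone genes, 2 were above the filter. H1-2, one of the somatic H1 genes of dividing and resting cells, had 116.1 and 74.1 in the controls, 65.9 and 29.3 under miR-483-5p and 90.0 under miR-483-3p. Both miR-483-5p arrays were below both controls and the miR-483-3p array lay between the controls. The differences were -0.69 (SE 0.26) and -0.04, with limma adjusted p = 0.423 for miR-483-5p. H1-6, the testis H1 gene, had 36.3 and 61.1 in the controls, 61.4 and 60.8 under miR-483-5p and 44.9 under miR-483-3p, which overlap. H1-1, H1-3, H1-4 and H1-5 were all dim.

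H3 and H4 form the central tetramer of the core, and most of their genes were dim or on shared probe sets. H3C6 had 137.4 and 151.1 in the controls, 117.7 and 123.4 under miR-483-5p and 149.6 under miR-483-3p. The miR-483-5p arrays were below both controls by a small margin, at -0.21 (SE 0.14), while miR-483-3p lay between the controls. H3C7 had 32.4 and 35.3 in the controls, 41.8 and 39.0 under miR-483-5p and 32.2 under miR-483-3p, at 0.14 and -0.04.

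H4C8 was the H4 gene that was lower with both mimics. Its signals were 86.0 and 97.0 in the controls, 41.3 and 71.2 under miR-483-5p and 29.1 under miR-483-3p, with all mimic arrays below both controls. The differences were -0.50 (SE 0.19) and -1.01 (SE 0.24), with limma adjusted p = 0.431 and 0.512, and its second probe set gave -0.41 and -0.49. H4C4 had 54.9 and 33.4 in the controls, 27.4 and 43.1 under miR-483-5p and 53.9 under miR-483-3p. H4C5 had 37.4 and 31.3 in the controls, 17.5 and 31.9 under miR-483-5p and 38.6 under miR-483-3p. H4C7, under the filter, had 27.8 and 31.4 in the controls, 18.2 and 24.0 under miR-483-5p and 32 under miR-483-3p. The arrays of H4C4 and H4C5 overlapped between groups, and in H4C7 only the miR-483-5p arrays were below both controls.

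The 20 shared probe sets cannot be assigned to 1 gene. The brightest of the probe sets listed for the same 14 H4 genes had signals of 596.3 and 536.0 in the controls, 536.5 and 439.2 under miR-483-5p and 492.1 under miR-483-3p. Its first miR-483-5p array was just above the second control, and the differences were -0.21 and -0.19 in a fit of all probe sets. The other probe sets of these H4 genes were far dimmer. They stood at 0.05, 0.27, 0.17 and -0.02 with miR-483-5p, and at -0.05, 0.20, 0.06 and 0.34 with miR-483-3p. One probe set of H2AC18 and H2AC19, near-identical H2A genes, had 335.7 and 314.0 in the controls, 192.5 and 124.3 under miR-483-5p and 175.7 under miR-483-3p. These groups were well apart, at -0.93 and -0.78, while another probe set of the same genes gave -0.54 and -0.17 and the last gave 0.08 and 0.05. The probe sets of the 5 genes H2BC4, H2BC6, H2BC7, H2BC8 and H2BC10 also differed among themselves. One had 244.0 and 211.8 in the controls, 150.2 and 143.6 under miR-483-5p and 140.6 under miR-483-3p. Another had 49.3 and 86.1 in the controls, 86.3 and 86.9 under miR-483-5p and 21.6 under miR-483-3p. The first was lower with both mimics and the second only with miR-483-3p, at log2 differences of -0.54 and -0.59 against 0.28 and -0.87. One probe set of 10 H3 genes, under the filter, had 24.5 and 31.2 in the controls, 6.8 and 5.5 under miR-483-5p and 8.5 under miR-483-3p, with every mimic array below both controls. Another of the same genes, also under the filter, had 19.0 and 48.5 in the controls and 11.0 under miR-483-3p. Its miR-483-5p arrays, at 19.5 and 28.8, lay between the controls. A probe set that lists H2AC7 besides these H3 genes stood at -0.13 and -0.17.

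**Figure D3:**
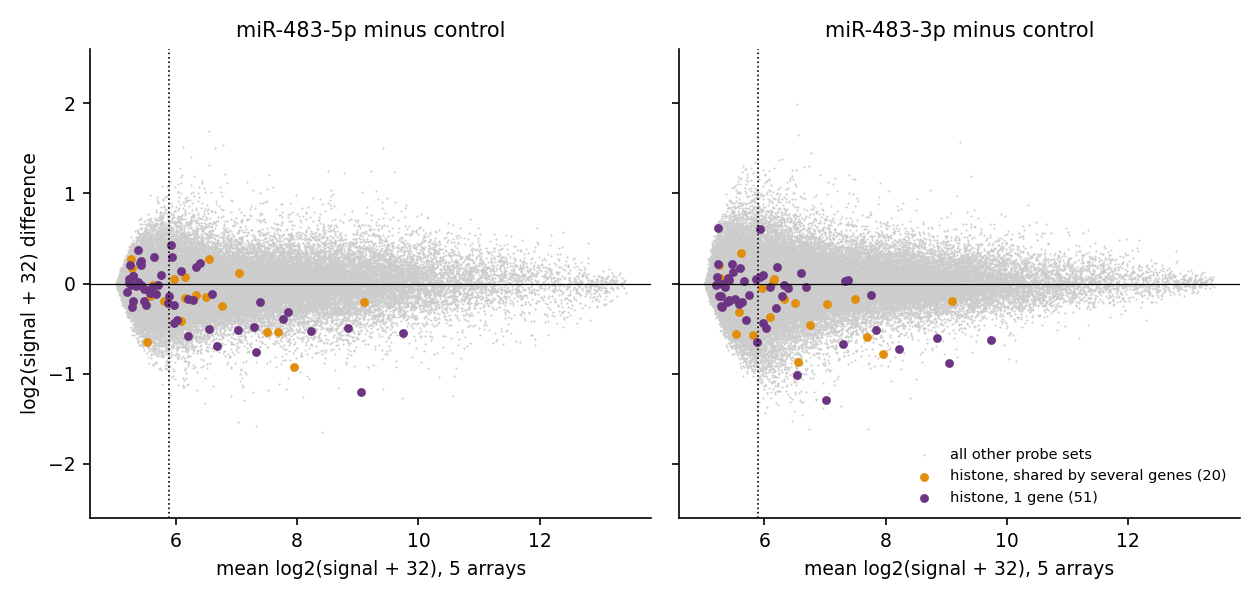
Difference in log2(signal + 32) from the control against the mean over the 5 arrays for all probe sets (grey), with the 51 histone probe sets of 1 gene in purple and the 20 shared ones in orange; the dotted line is the filter. The left panel is miR-483-5p and the right panel miR-483-3p. The brightest histone probe sets lie below 0 in both panels, down to -1.20 for H2AC6 on the left and -1.29 for H2BC9 on the right, and the dim ones lie on both sides of 0.

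The controls were uneven in some members. Among the 9 members with a control mean of at least 100, the first control was above the second in 6, against 48.42% of all genes that bright. The gap reached 0.87 on the log2 scale, with a median of 0.13 over those 9. Over the 20 members the median gap was 0.047, and 0.033 between the miR-483-5p arrays. Over all 14591 genes the median gap between the controls was -0.001. Summed over the 20 members the signal was 4494 and 3627 in the controls, 2746 and 2566 under miR-483-5p and 2742 under miR-483-3p. That sum is set mainly by the brightest probe sets, and the gap between the controls was close to that between the second control and the mimics. Counts without the first control array are given above.

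Many H2A and H2B genes lie head to head and share the sequence between their starts. Of 13 pairs of histone genes that start within 1000 bases of each other in opposite directions, 2 had both genes above the filter. The 13 include H2BC7 both with H2AC7 and with H3C4, which are annotated with a common start. H2BC4 and H2AC6, whose starts are 246 bases apart, were below 0 with both mimics, at -0.48 and -1.20 with miR-483-5p and at -0.67 and -0.88 with miR-483-3p. H3C7 and H2BC9, 979 bases apart, were at 0.14 and -0.52 with miR-483-5p and at -0.04 and -1.29 with miR-483-3p. Without the first control H2BC4 was at -0.046 and -0.231, so its side of the pair rests largely on that array.

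The genes around histone supply did not show lower signals as a group. Of 22 genes for histone mRNA transcription and 3′ processing, 21 had their own probe set, and all 21 were above the filter. In miR-483-5p against control none was lower and 1 was higher at an unadjusted p under 0.05, against 5.41% and 5.3% of all genes. The median was 0.08. With miR-483-3p none was lower or higher, against 4.05% and 2.51%, with a median of 0.10. SLBP, the stem-loop binding protein, had 902.9 and 797.3 in the controls, 987.8 and 925.8 under miR-483-5p and 891.3 under miR-483-3p. NPAT, the coactivator of histone transcription, had 265.7 and 247.5 in the controls, 336.7 and 284.4 under miR-483-5p and 290.5 under miR-483-3p. CASP8AP2, a scaffold of the histone locus body, had 273.7 and 239.0 in the controls, 305.2 and 312.7 under miR-483-5p and 310.6 under miR-483-3p. In all of these the miR-483-5p arrays were above both controls, at 0.17, 0.24 and 0.24. CCNE2, a cyclin that acts with CDK2 upstream of NPAT, had the lowest p of the list, at 0.41 (SE 0.14), and LSM10, of the U7 particle that cuts histone mRNA, stood at -0.30 (SE 0.15).

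Replication-independent histones, which are made in and outside S phase and largely from polyadenylated mRNA, were also mostly above 0 in these data. Of 9 above the filter, 6 were above 0 with miR-483-5p, at a median of 0.13, and 8 with miR-483-3p, at a median of 0.17, and none was lower or higher at an unadjusted p under 0.05. With miR-483-5p H3-3A, which encodes H3.3, had a difference of 0.33 and the macroH2A gene MACROH2A2 one of 0.24. The linker histone gene H1-10 of this list went the other way, at -0.26. Without the first control array the medians were 0.00 and 0.02. Of 22 histone chaperones, which carry histones to DNA, 1 was lower with miR-483-5p at an unadjusted p under 0.05, CABIN1 of the HIRA complex at -0.43, and 1 higher, the centromere chaperone HJURP at 0.51, with a median of 0.18, and both shares are near those of all genes (5.41% and 5.3%). With miR-483-3p their median was 0.13. Without the first control none was lower or higher, and the medians were 0.07 and 0.06. NASP, the chaperone that holds soluble H3 and H4, was at 0.34 and SSRP1, a FACT subunit, at 0.32 with miR-483-5p.

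Genes of S phase, when cluster histones are normally made, were mostly above 0 in both comparisons. Of 29 above the filter, 23 were above 0 with miR-483-5p, at a median of 0.17, and 28 with miR-483-3p, at a median of 0.28. At an unadjusted p under 0.05, 2 were higher with miR-483-5p, the ribonucleotide reductase gene RRM1 (0.53) and the sliding clamp gene PCNA (0.37), a share near the 5.3% of all genes. With miR-483-3p 2 were higher, against 2.51% of all genes: PCNA (0.59) and CDC45 (0.56), a part of the replicative helicase. TYMS, the thymidylate synthase gene, was at 0.53 and 0.49, with controls as far apart as 2922.3 and 4698.4. The summed S phase signal was 35170 and 40990 in the controls, 46050 and 44370 under miR-483-5p and 46670 under miR-483-3p. The first control was below the second in 22 of these 29 genes, and without it the medians were 0.09 and 0.21 with none and 1 higher. The part of S phase content in the histone values was not tested.

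**Figure D4:**
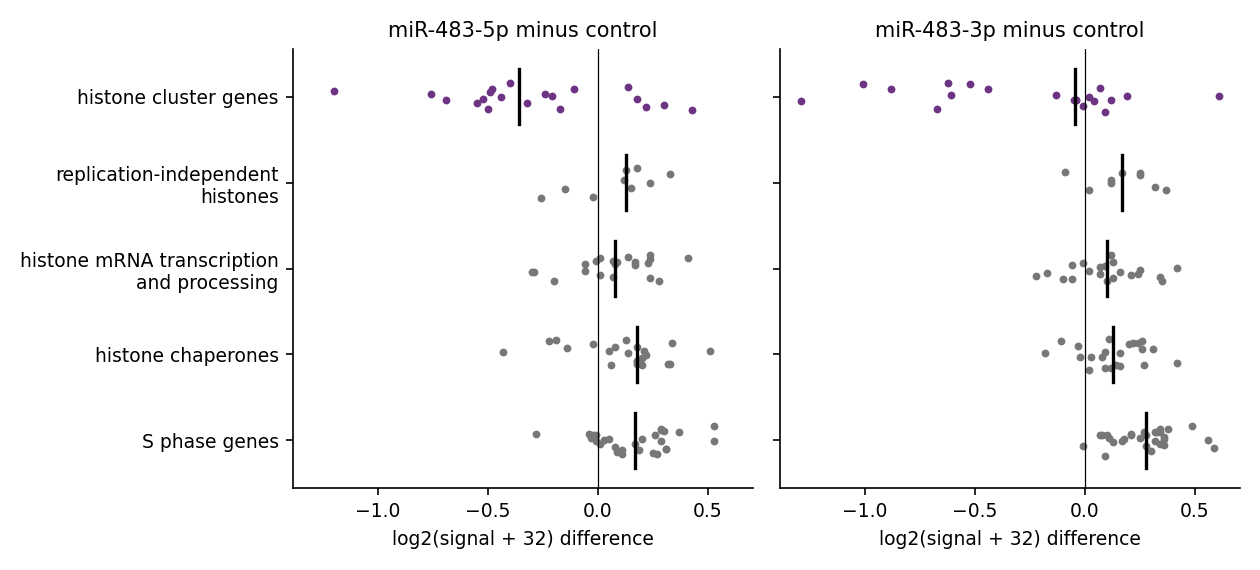
Difference in log2(signal + 32) from the control for each gene above the filter (point) and the median (bar) in 5 lists, for miR-483-5p on the left and miR-483-3p on the right. The histone cluster genes have medians of -0.36 and -0.05 and the other lists medians of 0.08 to 0.18 on the left and 0.10 to 0.28 on the right.

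The 5 genes named above as known for polyadenylated transcripts, which need not be all such genes, were above the filter. Of them 4 (H1-2, H2AC6, H2BC5 and H2BC12) were lower with miR-483-5p at an unadjusted p under 0.05 (5.41% of all genes), with a median of -0.55. The list was chosen with earlier results of these data known, so this count describes the 5 genes and is no test. The count was 1 without the second miR-483-5p array and 1 without the first control, at medians of -0.41 and -0.42. Their summed signal was 2913 and 2256 in the controls, 1648 and 1417 under miR-483-5p and 1605 under miR-483-3p. With miR-483-3p the median was -0.61. A sign of RNA integrity moved with the groups. The ratio of the GAPDH probe sets at the 3′ and 5′ ends was 1.016 and 0.9963 in the controls, 1.094 and 1.102 under miR-483-5p and 1.064 under miR-483-3p. The same ratio for ACTB was 1.065 and 1.04 in the controls, 1.182 and 1.073 under miR-483-5p and 1.093 under miR-483-3p. For ACTB the second miR-483-5p array was only just above the first control. The part of RNA integrity in the histone values was not tested.

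Genes whose names share only the prefix of the current nomenclature were not counted. Among them H2BC12L, an H2B gene related to H2BC12, had 505.5 and 410.9 in the controls, 267.4 and 281.0 under miR-483-5p and 283.5 under miR-483-3p. All mimic arrays were below both controls, at -0.67 (SE 0.16) and -0.63, with limma adjusted p = 0.332 and 0.644. H1-10 is the linker histone of the replication-independent list above. It had 1088.9 and 1323.2 in the controls, 1031.8 and 968.1 under miR-483-5p and 1127.6 under miR-483-3p, at -0.26 and -0.09.

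The arrays as a whole were alike, with median signals of 39.2 to 44.9, each scaled to the same trimmed mean, and their small number limits precision. The Ewing sarcoma markers CD99 and NKX2-2 were bright on every array, at 4381 to 5093 and 2444 to 2920. Of 8 such markers 7 had their own probe set, and all 7 were above the filter. Not all were as even: with miR-483-5p LIPI was at -0.52, FLI1 at -0.36 and CCND1 at 0.40. LIPI was the 1 lower and CCND1 the 1 higher at an unadjusted p under 0.05, against 5.41% and 5.3% of all genes. Of 12 markers of other lineages 3 (CD79A, PECAM1 and DES) were above it, and the summed signal of those 3 was 312.8 and 344.6 in the controls and 303.1 to 354.6 with the mimics. Of these 3, the muscle gene DES had 20.2 and 21.3 in the controls, 43.9 and 24.8 under miR-483-5p and 46.9 under miR-483-3p, and passed the filter only through the mimic arrays. The B cell gene CD79A had 138.9 and 180.1 in the controls, 138.2 and 160.3 under miR-483-5p and 108.9 under miR-483-3p. The defining blood cell marker PTPRC was at 5.9 to 19.7.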

How the data were processed

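Histone members and gene lists were chosen with earlier results of these data known. The authors deposited 1 linear intensity per probe set and array. GCOS and Partek appear in the submitters' processing notes with no version or role, and no source used here names the signal algorithm. Detection calls are not used here, and the only genome coordinates are those of the RefSeq windows. The 62 control probe sets were left out. Probe sets were named through the platform annotation and RefSeq gene identifiers (41091 with 1 symbol, 1801 with several, 11721 with none), and none was named from several symbols. Signals were used as log2(signal + 32) in limma 3.58.1 (R 4.3.3), with 1 mean per group over all 5 arrays (2 residual and 4.96 prior degrees of freedom), two-sided, adjusted by Benjamini-Hochberg over 14591 genes, and tested on simulated data. Shared and second probe sets come from a fit of all 54613 probe sets without a filter. The number of arrays limits precision. Members with a control signal of 27 or more are given for every array, others by name and range, and of each context list the 4 with the lowest p could be named, plus SLBP, NPAT and CASP8AP2. Alternatives were other scalings, filters, pseudocounts, probe set rules, a variance trend, a replicate block and leaving out arrays. Promoter windows come from RefSeq. Figures were drawn with matplotlib 3.10.9.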

Additional observations from a re-analysis of the deposited data

How the results depend on the processing

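Counts are of members lower at an unadjusted p under 0.05, then medians on the log2 scale. For miR-483-5p against control (8 of 20, median -0.36), leaving out 1 paired array gave 3 to 9 and -0.43 to -0.17. The median was -0.32 with median centring, -0.11 with no filter, -0.49 with a filter at the 60th percentile, -0.48 with a pseudocount of 1, -0.24 with a pseudocount of 100, -0.40 with probe sets averaged per gene and -0.24 with shared probe sets counted. With every probe set on its own it was 14 of 37, against 4.27% of all probe sets tested, and -0.25. At p under 0.01 it was 2, against 1.54% of all genes. Without _x_at probe sets, a setting added after seeing the data, it was 5 of 18, against 5.41% of all genes, and -0.21. Median centring, a pseudocount of 100 and a variance prior that follows intensity each called 1 member at an adjusted p under 0.05, H2AC6.

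For miR-483-3p against control (5 of 20, median -0.05), leaving out 1 paired array gave 3 to 8 and -0.089 to -0.046. The median was -0.009 with median centring, -0.52 with the 60th percentile filter and -0.12 with the mean of probe sets. With every probe set on its own the values were 10 of 37, against 3.58% of all probe sets tested, and -0.19. A replicate block that pairs first arrays and repeats gave 8, against 4.93% of all genes, and -0.09. At p under 0.01 the count was 2, against 1.17%. Shared probe sets gave 9 of 33, against 4.07%, and -0.17. Between the arms (1 of 20, median 0.04), leaving out the first or the second miR-483-5p array gave medians of -0.038 and 0.064. Leaving out a control cannot change the differences between the arms. The count was 2 with median centring and with no filter, against 3.37% and 3.35% of all genes. It was 0 with a pseudocount of 1 and at p under 0.01, against 2.8% and 0.555%. The median was -0.24 with the 60th percentile filter, -0.075 with a pseudocount of 1, -0.001 with the mean of probe sets and -0.091 without _x_at probe sets. The cause of these moves was not tested. In the block fit for miR-483-5p, 10 were lower, against 6.96% of all genes. The labels give no shared replicate numbers, so the block pairs arrays only as first and repeat. No member that was lower at an unadjusted p under 0.05 changed sign in any alternative run. With 2 residual degrees of freedom, a p that misses the threshold does not show that signals were equal.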
